A study of Mus musculus with 8 samples.

Results

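The cells described here are the pancreatic α-cells, which were taken as all cells that the deposited annotation names alpha cells. They numbered 707 of 6959 cells, 273 of them vehicle and 434 FAKi, and were held in 2 deposited clusters, numbered 5 and 9. The study asked if acinar cells can be turned into insulin-producing cells by inhibiting focal adhesion kinase (FAK), a kinase that relays signals from integrins at sites of contact with the matrix. Wild-type C57BL/6 mice, 8 weeks old at the start, were given the FAK inhibitor PF562271 (FAKi) or vehicle by oral gavage, at 50 mg/kg and 2 times a day over 3 weeks, and islets were handpicked 10 days after the last dose. Islets of 5 mice were combined into 1 library per condition, and the 8 samples of the series are 4 sequencing lanes of each library, which the count table does not separate. Both groups are therefore single pools, the treatment was given to the whole animal and not to the islets alone, and neither cells nor lanes are replicates. No difference between the libraries was tested, and the error given with each value covers counting error only.

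α-cells make glucagon, the hormone that raises blood glucose by driving glycogen breakdown and glucose production in the liver. They process proglucagon mainly with the convertase PC2, sense amino acids as well as glucose, and are held in check by somatostatin from neighbouring δ-cells and by insulin from β-cells. The Iroquois transcription factors IRX1 and IRX2 are among the regulators that mark them. In the mouse pancreas, some cells also combine glucagon with pancreatic polypeptide or peptide YY, close relatives encoded side by side.

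The vehicle library held 59514118 unique molecular identifiers (UMIs) in 3776 cells, and the FAKi library 57836783 UMIs in 3183 cells, of 8832 and 8437 cells that the labels give as taken for sequencing. The α-cells contributed 3790769 and 6009986 of these UMIs, at a median of 13126 per cell (vehicle) and 13262.5 (FAKi), with 3345 and 3393.5 detected genes and 5.11% and 5.29% mitochondrial UMIs in the median cell. β-cells were deeper, at medians of 30792.5 and 30427.5 UMIs, while δ-cells had 12670.5 and 13782. A barcode occurred in both libraries 4 times, and 0 of these cells were α-cells. The doublet caller scrublet marked 0 vehicle and 1 FAKi α-cell, among 68 and 57 cells marked in all. α-cells made up 7.23% of the vehicle cells (Clopper-Pearson 95% interval 6.42 to 8.10) and 13.6% of the FAKi cells (12.5 to 14.9). Taken only with β- and δ-cells, the share was 16.3% (14.5 to 18.1) and 20.4% (18.7 to 22.2). These shares come from 1 handpicked pool each, in which the number of endothelial cells also differed (543 and 269), and whether they reflect the treatment was not tested.

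Levels are given as CPM, which are the UMIs of a gene summed over the cells of a class in 1 library and scaled to a class total of 1000000 UMIs, and ratios carry exact conditional binomial 95% intervals. Log2 ratios are computed after adding 1 CPM. *Gcg*, which encodes proglucagon (chr2:62474530-62483653 in GRCm38.p6), stood at 237300 CPM in the vehicle α-cells and 267200 CPM in the FAKi α-cells. It was at 29460 and 31270 CPM in δ-cells and at 1148 and 1377 CPM in β-cells. *Ttr*, encoding the thyroid hormone carrier transthyretin, stood at 13660 and 13100 CPM in α-cells, against 2466 and 2124 CPM in δ-cells. *Irx2* was at 92.1 and 108 CPM in α-cells and at 10.9 and 14.8 CPM in δ-cells. These 3 markers thus marked the annotated class in both libraries. The fourth marker, *Gc*, encoding the vitamin D binding protein, was at 302 and 206 CPM in α-cells but also at 251 and 231 CPM in δ-cells, so it set the α-cells apart from β-cells (9.32 and 6.36 CPM) and not from the cells annotated as δ.

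**Figure D1:**
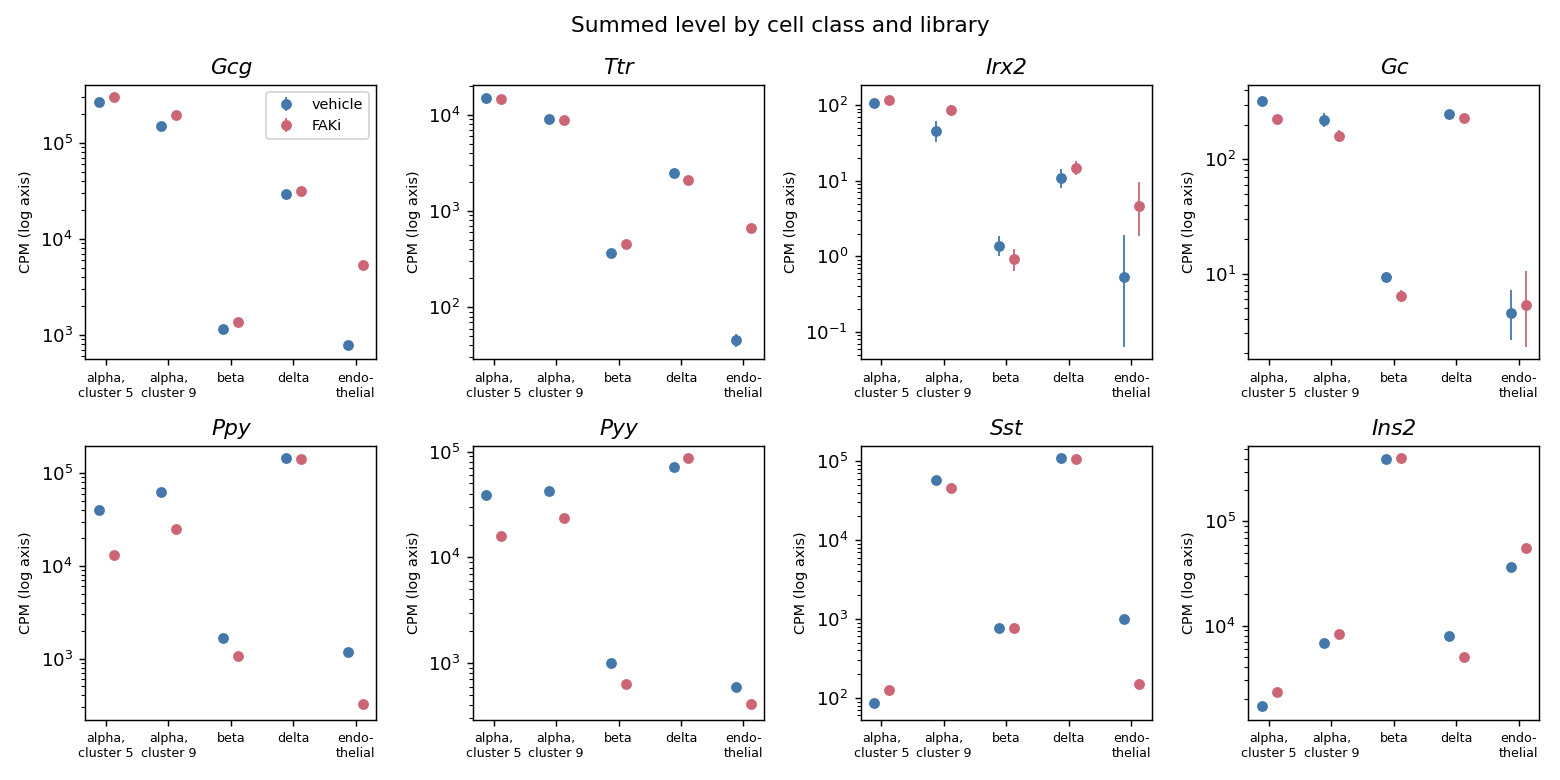
Summed level (CPM, log axis) of the markers *Gcg*, *Ttr*, *Irx2* and *Gc* and of the hormone genes *Ppy*, *Pyy*, *Sst* and *Ins2* in both α-cell clusters and in β-, δ- and endothelial cells, for the vehicle (blue) and FAKi (red) library, with exact Poisson 95% intervals. *Sst* stood at 86.3 and 126 CPM in cluster 5 of the α-cells and at 58410 and 45730 CPM in cluster 9.

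The annotated α-cells were not all cells in which *Gcg* was the leading hormone. When each cell was assigned to the hormone with the most UMIs, counting *Ins1* and *Ins2* together, *Gcg* led in 210 of the 273 vehicle α-cells (76.9%, 71.5 to 81.8) and in 367 of the 434 FAKi α-cells (84.6%, 80.8 to 87.8). *Sst*, encoding somatostatin, led in 31 (11.4%) and 48 (11.1%) of them. *Ppy*, encoding pancreatic polypeptide, led in 22 (8.06%) and 12 (2.77%), *Pyy* in 9 (3.30%) and 7 (1.61%), and insulin in 1 vehicle cell. The converse was seen in the class annotated as δ, where *Gcg* led in 20 of 328 and 29 of 358 cells and *Ppy* in 70 and 85, so that the δ class used for comparison here also holds cells led by other hormones.

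*Gcg*-led cells were the largest group. In these cells *Gcg* took a median share of UMIs of 29.7% (vehicle) and 27.7% (FAKi). Over all α-cells the median was 26.0% (quartiles 12.2 and 33.1) and 25.6% (17.8 and 31.7). The lower quartile of the vehicle cells therefore reached further down than that of the FAKi cells, while the medians lay close together.

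*Sst*-led cells formed a separate population within the class. All 79 of them lay in cluster 9, where they made up 31 of 87 vehicle cells (35.6%) and 48 of 168 FAKi cells (28.6%). *Sst* took a median of 17.8% and 16.1% of their UMIs, whereas *Gcg* had a median of 3 and 5 UMIs per cell. The α-cell markers were low in these cells, with *Irx2* at 0 and 26.0 CPM against 112 and 117 CPM in the *Gcg*-led cells, and *Ttr* at 58.2 and 579 CPM against 17280 and 14470 CPM. *Hhex*, a transcription factor that maintains δ-cells, stood at 397 and 455 CPM in the *Sst*-led cells, and at 0 and 1.5 CPM in the *Gcg*-led cells. *Rbp4*, which encodes retinol binding protein, had 6532 and 7537 CPM, against 1112 and 1094 CPM in the *Gcg*-led cells. By these genes the *Sst*-led cells carried δ-cell transcripts with little of the α-cell markers, which goes against their annotated name, and results that rest on the hormones are given below also for the *Gcg*-led cells alone.

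The *Ppy*-led cells stood between these groups for the α-cell markers, with *Irx2* at 39.6 and 43.2 CPM and *Ttr* at 3464 and 2395 CPM. Their *Ppy* share was a median of 21.9% and 19.7% of UMIs, with a median of 10.2% and 10.8% for *Pyy*. *Tspan8*, a tetraspanin gene found with *Ppy* in islets, was at 675 and 378 CPM in them and at 17.6 and 24.0 CPM in the *Gcg*-led cells. *Gcg* differed widely within this group, with upper quartiles of 7.96% and 7.98% of UMIs and medians of 14.5 and 210.5 UMIs per cell.

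Cells with 2 hormones at once were counted as those in which each reached at least 5% of the UMIs. *Gcg* and *Pyy* both did so in 30 of 273 vehicle α-cells (11%, 7.54 to 15.3) and in 19 of 434 FAKi α-cells (4.38%, 2.66 to 6.75). *Gcg* and *Ppy* did so in 25 (9.16%, 6.01 to 13.2) and 23 (5.30%, 3.39 to 7.85) cells, and *Ppy* and *Pyy* in 41 (15%, 11 to 19.8) and 21 (4.84%, 3.02 to 7.30). Glucagon was thus found together with each of these PP-fold hormones in both libraries. Together with *Sst* it was found in 0 of 273 vehicle cells, where a limit of 3 counts, used here for each share of 0, allows up to 1.10%, and in 1 of 434 FAKi cells (0.230%). Insulin transcripts reached 5% in 0 of 273 and 0 of 434 α-cells, which allows up to 1.10% and 0.691%. The median α-cell held 33 and 54.5 insulin UMIs (0.250% and 0.397% of its UMIs), and the median endothelial cell, which should lack insulin, held 18 and 32 (0.331% and 0.772%). By cluster, the median was 28 and 45 insulin UMIs (0.190% and 0.288%) in cluster 5, a lower share than in endothelial cells, and 68 and 94.5 UMIs (0.895% and 1.25%) in cluster 9, a higher one. The source of the insulin UMIs in cluster 9 was not tested.

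**Figure D2:**
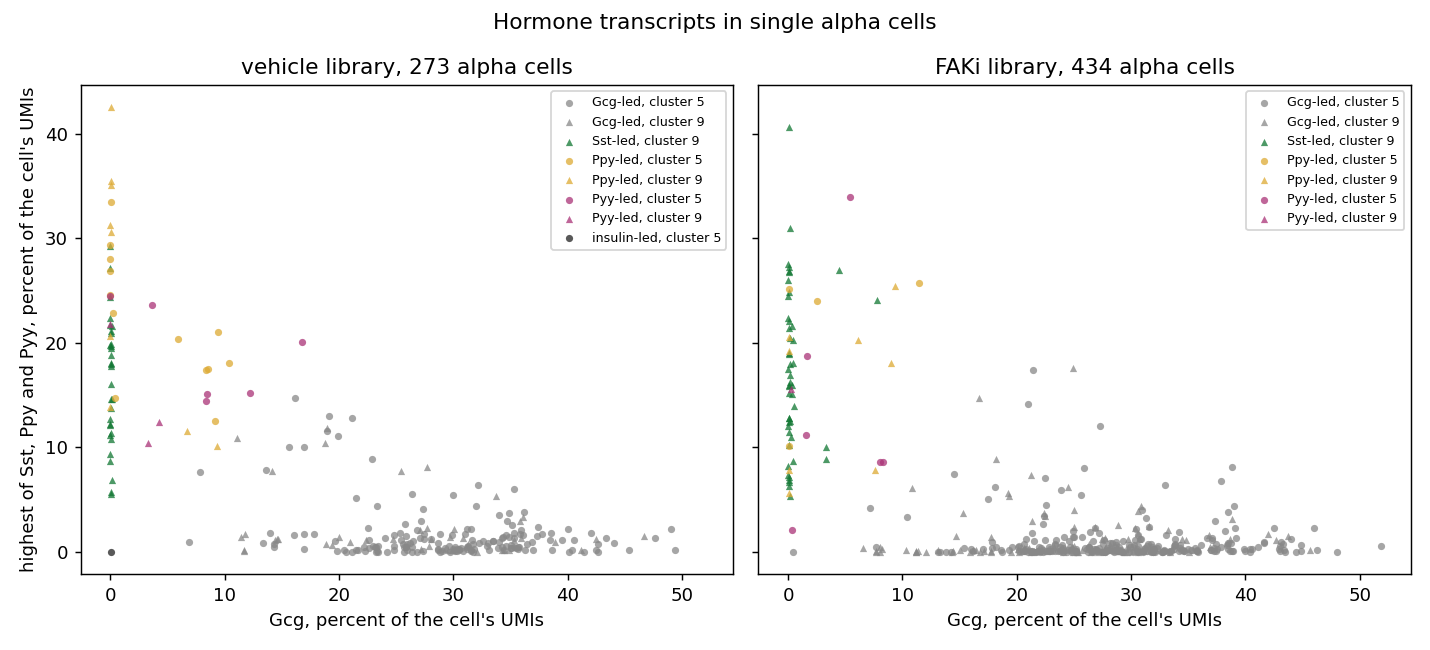
Each point is 1 α-cell of the vehicle (left, 273 cells) or FAKi (right, 434 cells) library, placed by the share of its UMIs from *Gcg* (x axis, percent) and by the highest share among *Sst*, *Ppy* and *Pyy* (y axis, percent), with the colour giving the leading hormone and the symbol the deposited cluster. The *Sst*-led cells sit near 0 on the *Gcg* axis, whereas several *Ppy*- and *Pyy*-led cells also hold *Gcg*.

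The deposited clusters of α-cells differed in depth, with medians of 14453 (vehicle) and 14873.5 (FAKi) UMIs in cluster 5 and 8113 and 8627 in cluster 9. Cluster 9 took 87 of 273 vehicle α-cells (31.9%) and 168 of 434 FAKi α-cells (38.7%). *Gcg* led in 166 of 186 (89.2%) and 256 of 266 (96.2%) cells of cluster 5, and in 44 of 87 (50.6%) and 111 of 168 (66.1%) cells of cluster 9. Both clusters had *Gcg*, *Irx1*, *Irx2*, *Edn3* and *Pdk4* among their 10 genes of highest fold over all other cells, and 0 markers of another class among them.

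Of 4192 genes with at least 100 UMIs over both clusters in each library, 46 (1.1%) exceeded their cluster 5 level at least 2 times in cluster 9 of both libraries, and 3 (0.0716%) were at least 2 times lower. All 15 compared genes of the list of acinar digestive enzymes were among the 46, with a median log2 difference of 6.19 (vehicle) and 5.25 (FAKi), against -0.05 and -0.06 over all genes. *Prss2*, encoding a trypsinogen, was at 55.7 and 97.6 CPM in cluster 5 and at 3949 and 3648 CPM in cluster 9. *Ctrb1*, encoding chymotrypsinogen, stood at 67.1 and 146 CPM in cluster 5 and at 5353 and 6827 CPM in cluster 9. Islet genes were also among the 46, including *Sst* and *Hhex*, which mark the *Sst*-led cells of this cluster, with *Ly6h*, *Cd24a* and *Shisal2b*. Of the β-cell list, 3 of 5 compared genes were also past the limit, at list medians of 1.99 and 1.80. *Iapp*, which encodes amylin, was at 678 and 522 CPM in cluster 5 and 7348 and 8183 CPM in cluster 9, but at 865 and 711 CPM in the *Gcg*-led cells of both clusters, which held 2460 of 8460 and 3794 of 15740 of its UMIs. *Ins2* was at 1695 and 2334 CPM in cluster 5 and at 6757 and 8406 CPM in cluster 9. The 3 lower genes were *Specc1*, *Kctd12b* and *Slc38a5*, the last a glutamine transporter of α-cells at 131 and 160 CPM in cluster 5 and 61.2 and 68.7 CPM in cluster 9. *Gcg* itself was at 264500 and 295100 CPM in cluster 5 and at 147700 and 193100 CPM in cluster 9. Since the clusters were drawn on these genes, the differences describe them and were not tested.

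Acinar transcripts separated the clusters cell by cell. The summed acinar list took a median of 0.0318% and 0.0582% of UMIs in cluster 5, and 3.16% and 2.66% in cluster 9. At least 1% was reached in 0 of 186 and 0 of 266 cells of cluster 5, which allows up to 1.61% and 1.13% of cells, and in 79 of 87 (90.8%, 82.7 to 95.9) and 142 of 168 (84.5%, 78.2 to 89.6) cells of cluster 9. In endothelial cells, which should lack these enzymes, the median was 0.0868% and 0.255%. The share in cluster 5 lay below that of endothelial cells and the share in cluster 9 above it. Markers of other cell types were low in α-cells. *Cd3e*, *Cd3g* and *Trbc2* of T cells had 0 UMIs in both libraries. *Pecam1*, *Plvap* and *Cdh5* of endothelial cells summed to 1.06 and 12.0 CPM, with 37.7 CPM in cluster 9 of the FAKi library. The ductal markers *Krt19*, *Sox9* and *Spp1* summed to 17.9 and 21.8 CPM, the B cell markers *Cd79a*, *Cd79b* and *Ms4a1* to 1.85 and 1.17 CPM, and the stromal markers *Col1a1*, *Col3a1* and *Dcn* to 3.69 and 2.33 CPM. The macrophage markers *C1qa*, *C1qb* and *Lyz2* summed to 83.4 and 85.5 CPM, most of it *C1qa*, and to 9.78 and 5.32 CPM in endothelial cells. Whether acinar transcripts in cluster 9 came from free RNA, from attached acinar cells or from the cells themselves was not tested.

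**Figure D3:**
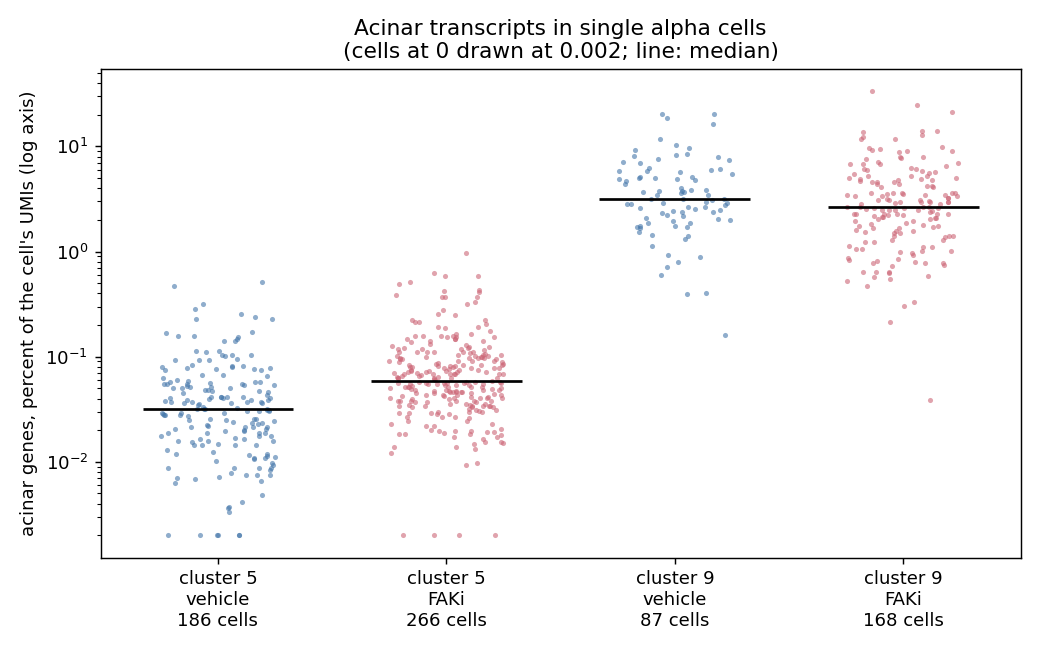
Share of each α-cell's UMIs from the acinar gene list (percent, log axis, cells at 0 drawn at 0.002) by deposited cluster and library, with the median as a line. The medians were 0.0318% and 0.0582% in cluster 5 and 3.16% and 2.66% in cluster 9.

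Next, α-cells were set against the other endocrine classes. Among 10581 genes with at least 100 UMIs over the 3 classes in each library, 143 (1.35%) were at least 2 times higher in α-cells than in both β- and δ-cells in both libraries, and 83 (0.784%) were at least 2 times lower. Because the classes were drawn on the same genes, these values describe the class and carry no test. The median gene was at a log2 ratio of 0.53 (vehicle) and 0.60 (FAKi) over β-cells, in which insulin transcripts take a large part of the total, and at -0.04 and 0.04 over δ-cells.

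The Iroquois factors were among the genes highest in α-cells. *Irx1* stood at 76.2 and 75.4 CPM in α-cells, against 6.0 and 5.60 CPM in δ-cells and 0.331 and 0.391 CPM in β-cells. *Irx2* showed the same order, at the levels given above, with 1.38 and 0.912 CPM in β-cells. In all, 6 of 11 compared genes of the α-cell list passed the limit, among them *Gcg*, *Ttr*, *Irx1*, *Irx2* and *Slc7a2*, and 3 of 24 islet transcription factors, *Irx1* and *Irx2* among them. Over all compared genes the share was 1.35%. Factors shared by islet cells differed in how they stood across the classes. The list had median log2 ratios of 0.97 and 0.95 over β-cells and of 0.10 and 0.26 over δ-cells. *Isl1* was at 219 and 245 CPM in α-cells, 319 and 298 CPM in δ-cells and 72.0 and 83.7 CPM in β-cells. *Insm1* was at 74.1 and 78.2 CPM in α-cells, 166 and 121 CPM in δ-cells and 131 and 133 CPM in β-cells. *Pax6* stood at 198 and 223 CPM in α-cells, 195 and 213 CPM in δ-cells and 205 and 193 CPM in β-cells.

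The other highest genes had varied roles. *Pdk4*, whose product shuts pyruvate out of the citric acid cycle, was at 90.0 and 97.7 CPM in α-cells, 3.0 and 4.87 CPM in δ-cells and 0.571 and 0.625 CPM in β-cells. *Higd1a*, encoding a mitochondrial protein induced by hypoxia, was at 128 and 137 CPM, against 9.64 and 13.0 CPM in δ-cells. *Edn3*, encoding endothelin 3, stood at 116 and 106 CPM and at 9.86 and 8.12 CPM in δ-cells. In β-cells *Edn3* was at 0.691 and 0.625 CPM and *Higd1a* at 1.08 and 0.834 CPM. *Avpr1b*, the vasopressin receptor V1b, was at 52.2 and 38.3 CPM in α-cells, 8.57 and 4.87 CPM in δ-cells, and 0.481 and 0.182 CPM in β-cells. *Upk3a*, which encodes a uroplakin, was at 160 and 69.9 CPM in α-cells, the widest difference between the libraries among the 15 highest genes. Others of the 15 were *Hhatl*, *Slc38a5*, *Wnk3*, *Tmsb15b2* and *Mamld1*, with log2 differences of 2.55 to 4.06 over δ-cells.

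**Figure D4:**
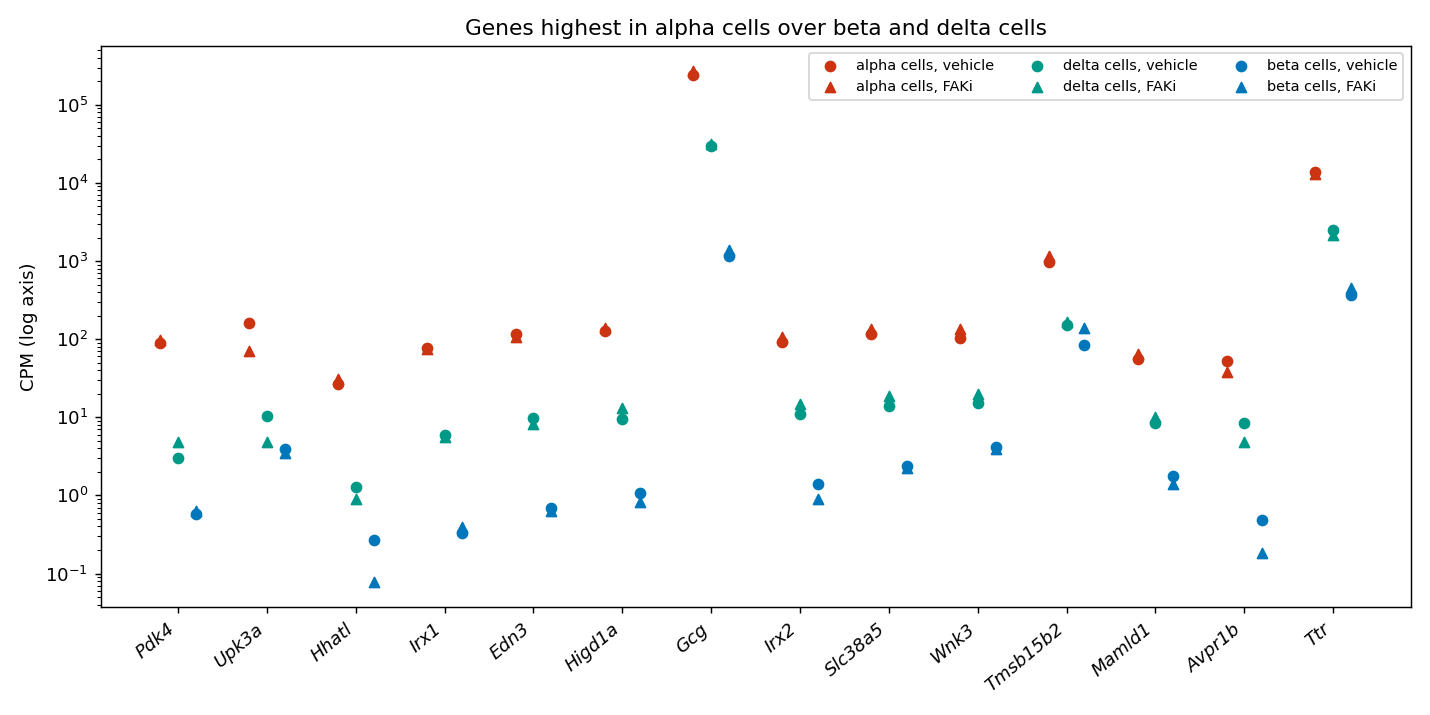
Summed level (CPM, log axis) of 14 of the 15 genes highest in α-cells over both β- and δ-cells, in the vehicle (circles) and FAKi (triangles) library. Both libraries gave α-cell levels above the δ-cell levels for each of the 14 genes, with *Pdk4* at 90.0 and 97.7 CPM against 3.0 and 4.87 CPM.

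Of the amino acid handling genes, 4 of 14 compared genes were above the limit, against 1.35% of all genes. *Slc7a2*, a carrier of arginine and lysine, was at 368 and 459 CPM in α-cells, 50.8 and 46.4 CPM in δ-cells and 96.7 and 95.5 CPM in β-cells. *Slc38a5* stood at 115 and 135 CPM, against 13.9 and 18.8 CPM in δ-cells and 2.40 and 2.24 CPM in β-cells. *Slc7a8*, a carrier of neutral amino acids, was at 97.6 and 125 CPM in α-cells, 25.1 and 24.4 CPM in δ-cells and 38.8 and 31.6 CPM in β-cells.

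Among the processing and granule genes, 0 of 16 were above the limit and 1 was below it. That gene was *Pcsk1*, encoding the convertase PC1/3, at 5.80 and 6.99 CPM in α-cells, 50.8 and 33.6 CPM in δ-cells and 250 and 223 CPM in β-cells. *Pcsk2*, encoding PC2, was at 3594 and 3394 CPM in α-cells, 2350 and 2103 CPM in δ-cells and 1254 and 1116 CPM in β-cells. *Pcsk2* was thus higher in α- than in β-cells and *Pcsk1* lower. Of 16 exocytosis genes 1 was above the limit, *Cadps*, which primes dense-core granules, at 162 and 157 CPM against 45.9 and 52.9 CPM in δ-cells. *Sytl4*, encoding the granule protein granuphilin, was at 2.11 and 2.0 CPM in α-cells and at 174 and 173 CPM in β-cells.

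Of 16 compared receptor genes, 3 were above and 3 below the limit, against 1.35% and 0.784% of all genes. *Avpr1b*, *Gpr119*, a receptor for lipid amides, and *Gria3*, an AMPA glutamate receptor subunit, were above. *Glp1r*, *Adra2a* and *Igf1r* were below. *Glp1r*, encoding the GLP-1 receptor, was at 5.01 and 6.99 CPM in α-cells, 34.3 and 27.3 CPM in δ-cells and 322 and 238 CPM in β-cells, and in cluster 5 alone at 0.688 and 3.44 CPM. *Sstr2*, encoding the somatostatin receptor of α-cells, stood at 11.3 and 18.5 CPM, against 1.5 and 1.63 CPM in δ-cells and 0.210 and 0.156 CPM in β-cells, but had too few UMIs to be among the compared genes. *Slc2a2*, the glucose transporter GLUT2, was at 2.90 and 2.50 CPM in α-cells and at 378 and 347 CPM in β-cells.

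The 5 genes lowest in α-cells relative to both other classes were *Pdx1*, *Sdk2*, *Hadh*, *Iapp* and *Frzb*. *Pdx1*, the transcription factor of pancreas and β-cells, was at 5.28 and 6.99 CPM in α-cells, 70.3 and 68.6 CPM in δ-cells and 141 and 134 CPM in β-cells. *Hadh*, an enzyme of fatty acid oxidation, was at 43.5 and 44.6 CPM, against 247 and 245 CPM in δ-cells. Part of these low levels came from cluster 9, with *Pdx1* at 20.4 and 23.7 CPM there and at 0.688 and 0.687 CPM in cluster 5, and *Frzb* at 60.0 and 41.3 CPM there and at 0.344 and 0.916 CPM in cluster 5. All 16 compared acinar genes also passed the limit of 2 times over β- and δ-cells, with cluster 9 at the levels given above, and are among the 143 genes. In cluster 5 the order was the opposite for the acinar markers *Prss2*, *Cpa1* and *Cela1*, each lower than in both other classes. Together they stood there at 100 and 191 CPM, against 684 and 733 CPM in β-cells and 348 and 449 CPM in δ-cells.

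The libraries were then compared within the α-cells. Among the 7808 genes that reached 100 UMIs when the α-cells of both libraries were summed, 214 (2.74%) were at least 1.5 times higher in the FAKi library and 105 (1.34%) at least 1.5 times lower, after adding 1 CPM. Without the 20 most abundant genes in the total, these counts were 181 and 157. The median gene had a log2 ratio of 0.03. With 1 pool of mice per condition, a ratio of this size cannot be told apart from a difference between the pools. In cluster 5 alone 2.65% of genes were higher and 1.2% lower, in cluster 9 alone 3.73% and 2.67%, and in endothelial cells 2.22% and 6.36%. The same comparison gave 70 (0.633%) higher and 189 (1.71%) lower of 11059 genes in β-cells, and 90 (1.13%) higher and 159 (1.99%) lower of 7973 in δ-cells. In *Gcg*-led α-cells 194 (2.72%) were higher and 92 (1.29%) lower of 7128 genes.

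The question here was whether genes of α-cell identity differed between the libraries. *Gcg* was 1.13 times as high in the FAKi library over all α-cells (1.12 to 1.13), and its log2 ratio was 0.17 over all α-cells and -0.04 in the *Gcg*-led cells, where the levels were 306900 and 297900 CPM. Endothelial cells, which should lack *Gcg*, held 787 CPM in the vehicle and 5401 CPM in the FAKi library, of which the median endothelial cell had 1 and 3 UMIs. Of 12 compared genes of the α-cell list 0 passed 1.5 times in either direction, with a median log2 ratio of 0.08. Cluster 9 alone differed from this, with 3 of 11 past the limit, all higher, among them *Irx1* at a log2 ratio of 0.81 and *Irx2* at 0.91, and in cluster 5 alone 1 of 12 passed, *Pou3f4* at 0.64. The *Gcg*-led part of cluster 9 was 50.6% (vehicle) and 66.1% (FAKi). In the *Gcg*-led α-cells of both clusters 0 of 12 passed, at a median of -0.05, with *Irx2* at 112 and 117 CPM. Of these cells 166 of 210 (vehicle) and 256 of 367 (FAKi) were in cluster 5, so their sum does not describe cluster 9. Whether its make-up accounts for the values of cluster 9 was not tested. Over all α-cells the lowest was *Gc*, at a ratio of 0.683 (0.629 to 0.740), with a log2 ratio of -0.54 in the *Gcg*-led cells and -0.49 in β-cells. *Irx1* was at a ratio of 0.989 (0.851 to 1.15). Of 23 compared islet transcription factors, again 0 passed, at a median of 0.08, and *Nkx2-2* was the lowest at a ratio of 0.783 (0.677 to 0.907). In cluster 9 alone 4 of 18 were higher past the limit, including *Neurod1* at 0.89, and in cluster 5 alone 1 of 23. Over all compared genes 3.73% were higher past it in cluster 9 and 2.65% in cluster 5.

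The list of PP-fold peptide genes, on which *Tspan8* also stands, was lower in the FAKi α-cells at 3 of 3 compared genes, with a median log2 ratio of -1.47. All 3 were past the limit, against 1.34% of all compared genes. *Ppy* (chr11:102099931-102101319) was at 45500 CPM in the vehicle and 16440 CPM in the FAKi α-cells, a ratio of 0.361 (0.358 to 0.364). *Pyy* (chr11:102106676-102107832) was at 40020 and 17880 CPM, a ratio of 0.447 (0.443 to 0.450). *Tspan8* was at 136 and 44.9 CPM, a ratio of 0.331 (0.284 to 0.384). The genes parted once the *Ppy*- and *Pyy*-led cells were left out. In the *Gcg*-led cells alone *Ppy* stood at 8874 and 9421 CPM (log2 ratio 0.09) and *Tspan8* at 17.6 and 24.0 CPM (0.43), so their sums over all α-cells were lower and those over *Gcg*-led cells were not. The *Ppy*- and *Pyy*-led cells, which the second sum leaves out, numbered 22 and 9 (vehicle) and 12 and 7 (FAKi). *Pyy* was lower in the *Gcg*-led cells as well, at 17640 and 11740 CPM (log2 ratio -0.59), and its median per cell was 79 UMIs (0.810%) in the vehicle and 33 UMIs (0.247%) in the FAKi library. At least 5% of UMIs came from *Pyy* in 19 of 210 vehicle (9.05%, 5.54 to 13.8) and 12 of 367 FAKi (3.27%, 1.70 to 5.64) *Gcg*-led cells. In δ-cells, which held most of the *Ppy*, the log2 ratios were -0.04 for *Ppy* and 0.27 for *Pyy*, and in endothelial cells, with medians of 0 or 1 UMIs per cell, -1.84 and -0.51. In β-cells both were past the limit lower, with *Ppy* at 1653 and 1067 CPM (-0.63) and *Pyy* at 1003 and 630 CPM (-0.67).

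The heat shock genes were higher in the FAKi α-cells. They encode chaperones that refold or hold damaged proteins and that cells switch on through the factor HSF1 under heat, proteotoxic stress and tissue handling. Of the 7 genes on the list 5 passed 1.5 times and all 7 had a log2 ratio above 0, at a median of 1.02. Of all 7808 compared genes 2.74% were higher past the limit and 4337 had a log2 ratio above 0, at a median of 0.03. *Hspa1b*, encoding an inducible HSP70, was at 176 CPM in the vehicle and 450 CPM in the FAKi α-cells, a ratio of 2.56 (2.35 to 2.79). Its near-identical neighbour *Hspa1a* stood at 518 and 926 CPM, a ratio of 1.79 (1.70 to 1.88), and how reads were split between the pair is uncertain. *Dnajb1*, the HSP40 partner of HSP70, was at 442 and 1016 CPM, a ratio of 2.30 (2.18 to 2.43), and had UMIs in 76.9% and 95.2% of α-cells. *Hsph1*, encoding HSP110, was at 197 and 400 CPM, a ratio of 2.04 (1.87 to 2.21). The small heat shock gene *Hspb1* was at 54.9 and 118 CPM, a ratio of 2.15 (1.84 to 2.52), but its log2 ratio was 0.12 in cluster 5, 1 cell held 20.2% of its vehicle UMIs, and subtraction of background left it at 0 CPM in both libraries, which ended its call. *Hspa8*, the constitutive HSC70, and *Hsp90aa1*, encoding HSP90α, were below the limit, both at a ratio of 1.24.

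The difference in heat shock genes was spread over the cells and not shared by all classes. The summed list took a median of 0.249% of the UMIs of a vehicle α-cell and 0.501% of a FAKi α-cell, with quartiles of 0.151 and 0.418 against 0.312 and 0.676. It was 0.220% and 0.473% in the *Gcg*-led cells, and 0.433% and 0.679% in the *Sst*-led cells. The median log2 ratio over the list was 0.95 in *Gcg*-led cells, 0.66 in cluster 5 and 1.19 in cluster 9. In δ-cells it was 1.09, with 5 of 7 genes past the limit, in β-cells 0.14 with 0 of 7, and in endothelial cells 0.10 with 1 of 7. Of all compared genes 1.13% were higher past the limit in δ-cells, 0.633% in β-cells and 2.22% in endothelial cells. The ratios in α- and δ-cells lay side by side, above those in β-cells for each of the 7 genes. Mitochondrial share and depth of the α-cells of both libraries are given above, and the time between dissection and capture was not among the values used here. The source of the heat shock difference was not tested.

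The promoters of the genes that passed the limit are shown because HSF1 is known to act through elements in such promoters. The 250 bases before the start site were read from RefSeq (GRCm38.p6) and searched on both strands for the paired heat shock element units GAANNTTC and TTCNNGAA, where N is any base. A match is a description of the letters and not evidence of binding. The first window listed for each gene was used. Of the 7 genes 5 had one, and 4 of these held a match, as did 3489 of the first windows of all 27025 genes (12.9%). The windows follow 5′ to 3′ on the gene's strand, with matches in capitals.
Hspa1b, chr17:34959239-34959488, minus strand: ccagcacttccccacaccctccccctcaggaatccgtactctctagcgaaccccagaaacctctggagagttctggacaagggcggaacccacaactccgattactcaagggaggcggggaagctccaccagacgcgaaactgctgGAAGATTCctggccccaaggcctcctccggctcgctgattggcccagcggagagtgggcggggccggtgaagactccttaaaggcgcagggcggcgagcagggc
Hsph1, chr5:149636337-149636586, minus strand: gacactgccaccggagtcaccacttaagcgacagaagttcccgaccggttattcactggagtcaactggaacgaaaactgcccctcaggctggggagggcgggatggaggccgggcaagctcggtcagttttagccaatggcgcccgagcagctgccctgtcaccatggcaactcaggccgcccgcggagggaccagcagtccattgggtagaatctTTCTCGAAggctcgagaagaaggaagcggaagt
Hspb1, chr5:135887669-135887918, plus strand: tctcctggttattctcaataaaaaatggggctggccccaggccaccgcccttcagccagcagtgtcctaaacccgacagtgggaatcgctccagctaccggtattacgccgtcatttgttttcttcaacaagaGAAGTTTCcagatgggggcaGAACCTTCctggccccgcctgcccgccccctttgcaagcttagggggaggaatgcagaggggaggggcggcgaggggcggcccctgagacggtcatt
The match of *Hspa1b* began 104 bases before the start site, and *Hspa1a* had the same match at the same distance in a window that differed by 3 bases. *Hsph1* had its match 33 bases before the start site of the first of its 2 windows, and *Hspb1* had matches at 117 and 97 bases. *Dnajb1*, with a ratio of 2.30, had none of these letters in its window at chr8:83607925-83608174.

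Immediate early genes, which cells transcribe within minutes of a stimulus and also during tissue dissociation, were split by the limit in the α-cells, with 4 of 16 past 1.5 times higher and 1 lower in the FAKi library. Over all compared genes the shares were 2.74% higher and 1.34% lower. A log2 ratio above 0 was found for 14 of the 16, against 4337 of all 7808 compared genes, and the list median was 0.29. After subtraction of the background of endothelial and immune cells the median was 1.34, and *Nr4a1* was left at 0 CPM in both libraries. *Jun* was at 1396 and 2381 CPM, a ratio of 1.71 (1.65 to 1.76), and *Atf3* at 587 and 1031 CPM, a ratio of 1.76 (1.68 to 1.85). *Dusp1*, a phosphatase that ends MAP kinase signals, was at 318 and 495 CPM. *Socs3*, an inhibitor of cytokine signalling, was at 254 and 466 CPM, a ratio of 1.83 (1.70 to 1.97). The most abundant, *Fos* and *Egr1*, were at ratios of 1.28 (1.25 to 1.31) and 1.20 (1.16 to 1.23). *Nr4a1*, an orphan nuclear receptor, was lower at 54.3 and 31.8 CPM. In β-cells 15 of the 16 genes had a log2 ratio below 0, at a median of -0.42 with 5 past the limit, and in endothelial cells also 15, at a median of -0.55 with 8 past the limit. In δ-cells the median was 0.18, with 2 past the limit higher and 3 lower. Of all compared genes 1.71% were past the limit lower in β-cells and 6.36% in endothelial cells. In δ-cells 1.13% were higher and 1.99% lower. *Jun* and *Atf3* had log2 ratios of -0.37 and -0.46 in β-cells and of 0.86 and 0.76 in δ-cells, whereas *Socs3* was at -0.59 and -1.09. *Nr4a1* was lower in each of these classes.

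**Figure D5:**
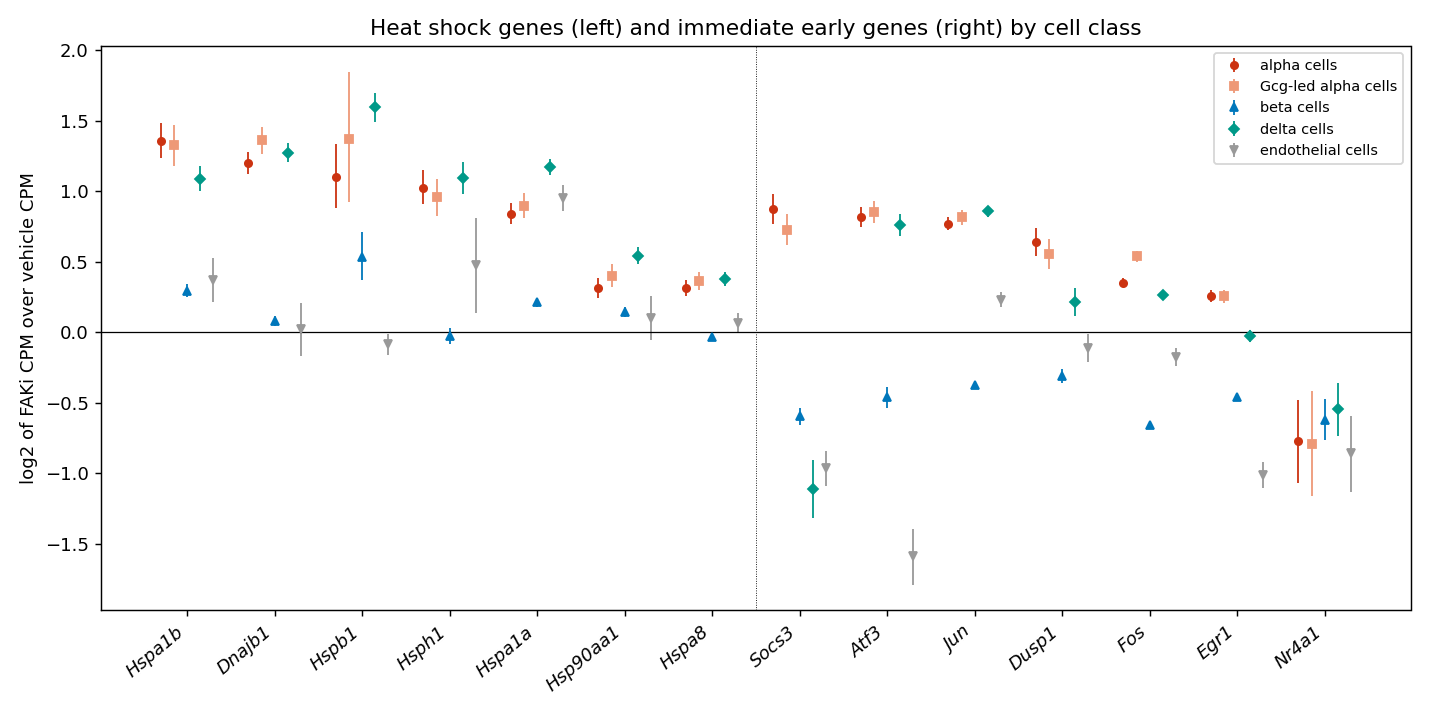
Log2 of the FAKi level over the vehicle level (CPM) for the 7 heat shock genes and 7 of the immediate early genes in α-cells, *Gcg*-led α-cells, β-, δ- and endothelial cells, with exact 95% intervals for counting error. The heat shock genes lay at 0.31 to 1.35 in α-cells, while *Socs3* lay at 0.87 in α-cells and below 0 in β-, δ- and endothelial cells.

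The 10 highest genes of the comparison included *Gm3336*, *Fam71a*, *Rnf122*, *Lbp*, *Neurl3*, *Vgf*, *Igf2bp3*, *Hspa1b* and *Gp2*. *Gm3336*, a predicted gene, was at 1.06 CPM in the vehicle and 29.8 CPM in the FAKi α-cells, a ratio of 28.2 (10.8 to 105), and was seen in 1.47% and 21.7% of α-cells. *Fam71a* was at 2.11 and 30.3 CPM, a ratio of 14.4 (7.13 to 33.7). Both stood higher in the FAKi library in δ-cells too, at log2 ratios of 1.04 and 2.26. *Vgf*, encoding a granule protein and precursor of neuroendocrine peptides, was at 10.8 and 33.1 CPM, a ratio of 3.06 (2.18 to 4.40), with log2 ratios of 1.35 in δ-cells and -0.48 in β-cells. *Rnf122*, which encodes a ubiquitin ligase, was at 5.54 and 23.5 CPM, a ratio of 4.24 (2.67 to 7.06), with log2 ratios of -1.12 in δ-cells and -0.55 in β-cells. *Lbp*, encoding the lipopolysaccharide binding protein, was at 3.69 and 15.5 CPM, with a log2 ratio of 1.81 in α-cells and 3.08 in β-cells. *Gp2*, a gene of the zymogen granule membrane, was at 7.65 and 20.6 CPM but at a log2 ratio of -0.00 in cluster 5.

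The 10 lowest genes were *Hba-a1*, *Hbb-bs*, *Hbb-bt*, *Depp1*, *Tspan8*, *Gm10320*, *Ppy*, *Tnfaip3*, *Serpine2* and *Gstp1*. The haemoglobin genes, transcripts of red blood cells, led them, with *Hbb-bs* at 628 and 7.65 CPM, but 1 cell held 40.9% of its vehicle UMIs. Of these, 2317 of 2382 UMIs lay in cluster 9, and the log2 ratio was -6.18 over all α-cells, -8.11 in cluster 9 and -1.47 in the *Gcg*-led cells. *Depp1*, a stress gene under FOXO control, was at 54.9 and 13.5 CPM over all α-cells but at a log2 ratio of 0.27 in cluster 5 and -0.01 in the *Gcg*-led cells. *Tnfaip3*, encoding the inhibitor A20 of NF-kappaB, was at 21.1 and 7.32 CPM, a ratio of 0.347 (0.235 to 0.507), and at log2 ratios of -0.43 in β-cells and -0.85 in δ-cells. *Nfkbia*, another inhibitor of NF-kappaB, which was picked after its values were seen, was at 350 and 198 CPM, with log2 ratios of -1.01 in β-cells and -0.61 in δ-cells. Subtraction of background left *Tnfaip3* and *Nfkbia* at 0 CPM in both libraries, which ended both calls. *Serpine2*, a protease inhibitor, was at 44.6 and 18.6 CPM, a ratio of 0.418 (0.326 to 0.534), and *Gstp1*, a glutathione transferase, at 25.6 and 10.7 CPM. *Gm10320* was lower by 1.43 to 1.55 on the log2 scale in each α-cell cluster, and lower in β- and δ-cells as well.

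The targets of the inhibitor and the adhesion machinery showed small ratios. *Ptk2*, the gene of FAK, was at 19.5 and 18.8 CPM in α-cells, a ratio of 0.963 (0.712 to 1.31), and its relative *Ptk2b* at 29.0 and 26.5 CPM, a ratio of 0.912 (0.711 to 1.17). PF562271 acts on the kinase and not on its transcript, so these values do not check the treatment. Of 20 compared FAK and focal adhesion genes 0 passed 1.5 times, at a median log2 ratio of -0.07. They ranged from *Actn1*, an actin crosslinker, at 28.0 and 21.0 CPM to *Git1*, a scaffold at adhesions, at 18.7 and 23.3 CPM.

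Secretory, sensing and metabolic groups also stayed mostly within the limit. Of all compared genes 2.74% were higher and 1.34% lower past it. Of 15 compared processing and granule genes 1 passed, *Vgf*, at a list median of -0.01, and the lowest was *Scg2* at a ratio of 0.737 (0.703 to 0.772). Of 14 exocytosis genes 0 passed, at a median of -0.07, and of 15 glucose sensing and excitability genes 0, at a median of -0.14. Of 12 receptor genes 1 passed, *Sstr2*, at 11.3 and 18.5 CPM and a ratio of 1.63 (1.14 to 2.37), while *Avpr1b* was the lowest at 0.733 (0.603 to 0.891). In the *Gcg*-led cells 0 of 12 receptor genes passed, with *Sstr2* at a log2 ratio of 0.54. Of 14 amino acid genes 0 passed, at a median of 0.11. In the *Gcg*-led cells 1 of 14 amino acid genes was higher past the limit, and 1 of 13 exocytosis genes lower. Of 15 endoplasmic reticulum stress genes 0 passed, at a median of -0.00, with *Hspa5*, encoding the chaperone BiP, highest at 630 and 895 CPM and a ratio of 1.42 (1.35 to 1.49). In β-cells *Hspa5* had a log2 ratio of -0.36. Of 6 cell cycle genes 1 passed, *Cdkn1a*, the inhibitor p21, at 31.1 and 51.8 CPM and a ratio of 1.66 (1.34 to 2.07), a call that ended when background was subtracted, which left it at 0 CPM in both libraries. *Mki67* and *Top2a*, which mark dividing cells, had too few UMIs to be compared. Of 11 MHC class I and interferon genes 0 passed, at a median of 0.04, which was 1.98 after subtraction of the background of endothelial and immune cells.

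Acinar transcripts were higher in the FAKi library in several classes. Of 16 acinar genes 5 passed in α-cells, at a median log2 ratio of 0.28. In the *Gcg*-led α-cells 11 of 16 passed, at a median of 0.82, and in cluster 5 the median was 0.85 with 10 of 14, against 0.03 in cluster 9. In endothelial cells the median was 0.75 with 10 of 15 past the limit, and in δ-cells 0.62 with 8 of 15. In β-cells it was 0.15 with 1 of 16. Of all compared genes 2.74% were higher past the limit in α-cells, 2.72% in *Gcg*-led α-cells and 2.65% in cluster 5. The share was 2.22% in endothelial cells, 1.13% in δ-cells and 0.633% in β-cells. *Ins2* was at 2874 and 3996 CPM in α-cells, a ratio of 1.39 (1.36 to 1.42), and at a log2 ratio of 0.59 in endothelial cells, but at -0.68 in δ-cells, where it stood at 8020 and 4999 CPM. The δ-cell sums hold 24 and 10 cells led by insulin, and the median δ-cell had 20.5 and 35 *Ins2* UMIs, against 25 and 40 in the median α-cell and 14 and 25 in the median endothelial cell. When the profile of endothelial and immune cells was subtracted as background, the acinar list median in α-cells turned to -0.87.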

How the data were processed

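Islet cells were profiled with the 10x Genomics Chromium 3′ chemistry. The authors deposited raw UMI counts per gene and cell, with 1 metadata table that gave library, cluster, cell type and the mitochondrial percent of each cell as deposited by the authors. The submitters' processing notes name Cell Ranger, Seurat 3.1 and the build mm10. Per the study's methods, counts were normalised with SCRAN, integrated with scanorama and clustered by the Louvain method. The table held 19945 genes, of which 23 names had been turned into dates.

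UMIs were summed per class and library, scaled to CPM and compared with a pseudocount of 1 CPM, for genes with at least 100 UMIs, with scipy 1.17.1 and numpy 2.4.6 under python 3.11.15, with scrublet from scanpy 1.11.5, tables from pandas 2.3.3 and figures from matplotlib 3.10.9. Doublets were counted and kept. Intervals are exact Poisson (levels), exact conditional binomial (ratios) and Clopper-Pearson (shares), at 95%, with a limit of 3 counts for a share of 0, and cover counting error only. With 1 library per condition no test was run. The calculations were checked on simulated data. Genes named are the 15 highest and 5 lowest against both β- and δ-cells, the 10 highest and lowest between the libraries, the extremes and up to 4 most abundant genes of each list, *Ptk2* and *Ptk2b*. Other genes named in the class comparison, *Nfkbia* and *Cebpd* were picked after their values were seen. A few genes of the lists and of the named sets are counted but not reported here by name. The members and lists were chosen with earlier results of these data known. Alternatives were another scaling, filter, pseudocount and fold, mean CPM per cell, a mitochondrial limit, thinning, removal of top cells, subtraction of background and *Gcg*-led cells alone, with each cluster alone added after the data were seen. Others kept cells without a doublet call, or with *Xist* and no Y-linked UMI.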

Additional observations from a re-analysis of the deposited data

Results flagged for a closer look

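*Socs3* had opposite directions in α-cells and in the other endocrine classes. Its log2 ratio of FAKi over vehicle was 0.87 in α-cells and -0.59 in β-cells, a difference of 1.46, and -1.09 in δ-cells, a difference of 1.97. Under the alternative settings the α-cell ratio of *Socs3* ranged from 0.72 to 8.63, so its size depends on the setting. The haemoglobin genes were lower in the FAKi α-cells and higher in the FAKi δ-cells. The log2 ratio of *Hba-a1* was -6.44 in α-cells and 5.32 in δ-cells, a difference of -11.75, that of *Hbb-bs* was -6.18 and 4.78, a difference of -10.96, and that of *Hbb-bt* was -4.43 and 4.76, a difference of -9.19. In the *Gcg*-led α-cells *Hbb-bs* was at -1.47, and after subtraction of background all 3 genes were at 0 CPM in both libraries of α-cells. In the vehicle α-cells 1 cell held 43.6% of the *Hba-a1*, 40.9% of the *Hbb-bs* and 43.9% of the *Hbb-bt* UMIs. With 1 library per condition, none of these differences between classes was tested.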

How the results depend on the processing

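No paired analysis was possible, since each condition is 1 pool and lanes that share a number form no biological pair. With 1 library per condition none was left out. Keeping only cells with an *Xist* UMI and no Y-linked UMI gave 212 genes higher and 107 lower of 7807. The opposite choice, Y-linked UMIs and no *Xist*, gave no value, since 0 α-cells met it. An *Xist* UMI was found in 272 of 273 vehicle and 433 of 434 FAKi α-cells. Depth limits the comparison to genes with 100 UMIs. Of the values for single genes and lists, 668 stayed within their interval or limit, 180 moved and 4 reversed, and of the main values 59 stayed, 43 moved and 1 reversed. The causes were not tested unless stated.

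The 143 genes higher in α-cells became 85 in thinned cells and 75 with cluster 9 alone. The 214 genes higher in the FAKi library became 112 among cells under 5% mitochondrial UMIs (4946 genes compared), 112 in thinned cells (3788), 595 after subtracting the background of endothelial and immune cells (4867), 106 in cluster 9, 617 with at least 20 UMIs (11570), 35 with at least 500 (2129) and 40 at a fold of 2. The 105 lower genes became 64 in thinned cells, 228 after subtraction, 409 with at least 20 UMIs, 9 with at least 500 and 15 at a fold of 2. Subtraction by its construction takes genes that those cells use toward 0, and left 13 named genes at 0 CPM in both libraries, ending the calls of *Neurl3*, *Hba-a1*, *Hbb-bs*, *Hbb-bt*, *Tnfaip3*, *Hspb1*, *Nr4a1*, *Cdkn1a*, *Id1*, *Id2*, *Id3* and *Nfkbia*, the other being *Ptk2*.

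The log2 ratio of *Gcg*, 0.17, was 0.059 as a mean of CPM per cell, 0.40 under 5% mitochondrial UMIs, 0.10 thinned, -0.043 in *Gcg*-led cells, 0.18 without the top cells, 0.13 after subtraction, 0.16 in cluster 5 and 0.39 in cluster 9. The PP-fold median, -1.47, reversed to 0.086 in *Gcg*-led cells, which leave out the *Ppy*- and *Pyy*-led cells, and was -1.30 as a mean of CPM, -1.64 without the 20 top genes, -1.43 under the mitochondrial limit, -1.30 thinned, -1.70 without the top cells, -1.52 after subtraction, -1.56 in cluster 5, -1.33 in cluster 9 and -1.41 with a pseudocount of 10 CPM. The median of immediate early genes, 0.29, was 0.21 under the mitochondrial limit, 0.38 thinned, 1.34 after subtraction and 0.37 in cluster 9, and that of heat shock genes, 1.02, was 0.66 in cluster 5 and 1.19 in cluster 9. *Gcg*-led cells, 76.9% and 84.6%, were 62.1% and 75.7% under the mitochondrial limit, 89.2% and 96.2% in cluster 5 and 50.6% and 66.1% in cluster 9. The acinar median, 0.28 and under the limit, was -0.87 after subtraction. Among single genes *Ppy* (0.086) and *Tspan8* (0.43) reversed in *Gcg*-led cells, and *Depp1* (0.27) and *Gp2* (-0.00047) in cluster 5.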

Other observations

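Some genes outside the lists, picked after their values were seen, also differed between the libraries in α-cells. The inhibitors of DNA binding *Id1*, *Id2* and *Id3*, targets of BMP signalling, were at 11.1, 24.5 and 21.4 CPM in the vehicle library and at 26.5, 56.2 and 50.3 CPM in the FAKi library. After subtraction of the background of endothelial and immune cells, all 3 were at 0 CPM in both libraries. For *Id3* the log2 ratio was -0.50 in β-cells and -0.89 in δ-cells. *Cebpd*, a transcription factor of the acute phase response, was at 28.8 and 69.6 CPM in α-cells, with log2 ratios of -0.39 in β-cells, -0.39 in δ-cells and -0.84 in endothelial cells. *Cwc22*, a splicing factor gene, was at 31.7 and 80.0 CPM in α-cells and had log2 ratios of 0.86 in β-cells, 1.09 in δ-cells and 1.02 in endothelial cells. *Tmsb15b1*, encoding a thymosin, was at 56.2 and 131 CPM in α-cells, with log2 ratios of 1.22 in β-cells, 0.95 in δ-cells and 1.48 in endothelial cells.

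Of 80 cytosolic ribosomal protein genes 0 passed 1.5 times, at a median log2 ratio of 0.09, which was 0.81 after that subtraction, and of 83 nuclear genes of oxidative phosphorylation 0, at a median of 0.03. Of 13 mitochondrially encoded genes 2 passed, *mt-Nd4l* at a ratio of 1.73 and *mt-Nd5* at 1.61, against 2.74% of all compared genes.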
